A study of Mus musculus with 7 samples.

Results

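Clock output genes are the genes through which the circadian clock of a cell reaches the rest of its transcriptome. The 9 genes described here (*Dbp*, *Tef*, *Hlf*, *Nfil3*, *Bhlhe40*, *Bhlhe41*, *Ciart*, *Rora* and *Wee1*) were taken by name, as transcription factors and other genes known to be driven by the clock, from the 20927 entries of a count table of mouse left ventricles. A gene was tested if 3 or more libraries held 10 or more of its counts, and all 9 were among the 13894 genes that met this. Of the 7 mice, each with 1 library of its left ventricle, 3 were WT (replicates 1, 3 and 4) and 4 were homozygous for A178D (replicates 1 to 4), and the strain was C57BL/6J for both genotypes. A178D is an alanine-to-aspartate missense change in titin, the giant spring protein of the sarcomere, and the allele was knocked in by CRISPR-Cas9 in embryonic stem cells and bred onto C57BL/6J. The study compared the genotypes to describe the transcriptional state of A178D hearts. Age, sex and time of day at collection of these 7 mice are not given in the sources used here, and a missense change cannot be checked in counts per gene. With 1 time of collection per heart, a change in mean level and a shift in the phase of a rhythm cannot be told apart. WT libraries held 51797208, 54245530 and 41102868 counts, and A178D libraries held 40623300, 52345529, 42174448 and 33080675. Levels are given as counts per 1000000 (CPM), scaled between libraries by TMM, a normalisation that assumes most genes do not differ.

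In most cells of the body the transcription factors CLOCK and BMAL1 (encoded by *Arntl*) bind DNA elements called E-boxes and switch on the genes of their own repressors, the PER and CRY proteins, and of further factors that carry the rhythm outwards. Among these, the PAR bZIP factors DBP, TEF and HLF activate genes through an element called the D-box, and NFIL3 represses from the same element. BHLHE40, BHLHE41 and CIART feed back as repressors of CLOCK and BMAL1, whereas RORA activates *Arntl* at elements where the NR1D1 and NR1D2 proteins repress it. The heart has a clock of its own, which is known to time ion channel and metabolic genes in cardiomyocytes.

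In A178D hearts 3 of the 9 output genes were lower than in WT hearts, namely *Wee1*, *Tef* and *Hlf*, and 0 were higher (edgeR, adjusted *p* under 0.05 over all genes tested). DESeq2 and limma-voom likewise each called 3 lower and 0 higher. Over all genes tested 1.31% were called lower, 1.04% higher and 2.35% in either direction. At an unadjusted *p* under 0.05 the count was 5 of 9, against 16.7% of all genes tested. In 5 of 9 genes the highest A178D heart was still below the lowest WT heart, against 8.52% of all genes tested in that direction and 16.1% in either. The median log2 fold change, A178D over WT, was -0.27 for the 9 genes and 0.0023 for all genes tested. In whole ventricle, fewer cells of a type and less RNA per cell cannot be told apart for any of these genes.

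Among the PAR bZIP factors, *Tef* (ENSMUSG00000022389, chr15:81802421-81826863, plus strand, GRCm38) measured 334, 353 and 366 CPM in WT hearts 1, 3 and 4 and 240.0, 265, 281 and 284 CPM in A178D hearts 1 to 4. The genotypes did not overlap, and the highest A178D heart stayed well under the lowest WT heart. Mean levels were 351 ± 16.2 CPM (SD, n = 3) in WT and 268 ± 20.2 CPM (SD, n = 4) in A178D, a log2 fold change of -0.39 ± 0.07 (SE; edgeR, adjusted *p* = 0.0160). *Hlf* (ENSMUSG00000003949, chr11:90336536-90390895, minus strand) measured 65.4, 69.6 and 78.1 CPM in WT hearts and 45.7, 56.6, 57.5 and 52.8 CPM in A178D hearts. Here too each A178D heart was lower than each WT heart, with A178D heart 1 the lowest of all. The log2 fold change of *Hlf* was -0.42 ± 0.09 (SE; edgeR, adjusted *p* = 0.0306), from means of 71.0 and 53.1 CPM.

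*Dbp* (ENSMUSG00000059824, chr7:45705088-45710203, plus strand), whose transcript is among the most strongly rhythmic in many mouse organs, was not called in either direction. WT hearts held 125, 119 and 128 CPM, and A178D hearts held 88.1, 120.04, 133 and 155 CPM. The 3 WT hearts were close together, and A178D hearts lay on both sides of them, with heart 1 below and hearts 3 and 4 above. The means were 124 ± 4.71 CPM (SD, n = 3) and 124 ± 28.0 CPM (SD, n = 4), and the log2 fold change of 0.0016 had a 95% interval from -0.29 to 0.29 (edgeR, adjusted *p* = 0.998). The sign of this value was negative, at -0.05, once trends with transcript length and GC content were removed. On the log2 scale, the SD of *Dbp* among A178D hearts was 0.34, larger than that of 85.2% of tested genes, and among WT hearts it was 0.06, larger than that of 15.0%. The exons of *Dbp* share 539 bases with those of *Sphk2* on the opposite strand. The libraries were stranded, but whether the counting used strand is not given in the sources used here, so that *Dbp* values are uncertain to that extent. Strand is also a doubt for *Bhlhe41*, *Tef*, *Bhlhe40* and *Rora*, whose exons share 1280, 193, 118 and 82 bases with genes on the opposite strand. Those genes are not in the count table, whereas *Sphk2* is, with 7045 counts over the 7 libraries.

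Within a heart, the 3 factors can be set against each other without reference to other genes. The log2 ratio of *Hlf* over *Dbp* was -0.93, -0.77 and -0.71 in WT hearts and -0.95, -1.09, -1.21 and -1.55 in A178D hearts. All 4 A178D hearts were lower, although heart 1 was close to WT heart 1. For *Tef* over *Dbp* the log2 ratio was 1.42, 1.57 and 1.51 in WT hearts and 1.45, 1.14, 1.08 and 0.88 in A178D hearts, so that A178D heart 1 fell inside the WT range. *Tef* over *Hlf* had a mean log2 ratio of 2.31 ± 0.07 (SD, n = 3) in WT hearts and 2.33 ± 0.09 (SD, n = 4) in A178D hearts, with overlap. These ratios are descriptions and were not tested.

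*Nfil3* (ENSMUSG00000056749, chr13:52967209-52981073, minus strand), the repressor that competes with the PAR bZIP factors, measured 9.97, 8.93 and 9.33 CPM in WT hearts and 7.34, 8.18, 6.82 and 8.83 CPM in A178D hearts. The genotypes did not overlap, but A178D heart 4 came close to WT heart 3. The log2 fold change of -0.27 ± 0.12 (SE) did not pass the test (edgeR, adjusted *p* = 0.270), and its 95% interval ran from -0.53 to -0.02. The log2 ratio of *Dbp* over *Nfil3*, an activator over its competitor, was 3.64, 3.73 and 3.78 in WT hearts and 3.59, 3.88, 4.29 and 4.13 in A178D hearts. It was above all WT hearts in A178D hearts 2, 3 and 4 and below them in heart 1.

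*Wee1* (ENSMUSG00000031016, chr7:110122046-110143286, plus strand) encodes a kinase that restrains mitotic entry by phosphorylating the cyclin-dependent kinase CDK1, and is a textbook example of a gene outside the clock that the clock drives. It measured 31.9, 33.4 and 41.0 CPM in WT hearts and 16.7, 20.2, 23.2 and 20.01 CPM in A178D hearts. The gap between the genotypes was wider than the whole range of the A178D hearts. Means were 35.4 ± 4.87 CPM (SD, n = 3) and 20.04 ± 2.64 CPM (SD, n = 4), and A178D hearts held 0.566 of the WT level. The log2 fold change of -0.82 ± 0.11 (SE; edgeR, adjusted *p* = 0.00406) was the largest in size of the 9 genes. Among 10 genes of mitotic entry, the pathway of *Wee1*, edgeR called 0, as did limma-voom and DESeq2 (which gave 9 of them an adjusted *p*), and 2 had an unadjusted *p* under 0.05. Their median log2 fold change was 0.18. Of all genes tested, 16.7% had an unadjusted *p* under 0.05. Several genes of this list were near the floor, which limits what could be called. *Cdc25c* was at or under 0.36 CPM and *Ccnb1* at or under 0.87 CPM in each heart. *Cdk1*, the substrate of WEE1 and the gene of this list with the smallest *p*, measured 1.256, 1.63 and 1.23 CPM in WT hearts and 2.26, 2.62, 2.06 and 1.54 CPM in A178D hearts. A178D heart 4 lay inside the WT range, and the log2 fold change of 0.63 ± 0.24 (SE) did not pass the test (edgeR, adjusted *p* = 0.214).

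The E-box repressor *Bhlhe40* (ENSMUSG00000030103, chr6:108660629-108666925, plus strand) measured 84.4, 81.2 and 73.4 CPM in WT hearts and 77.7, 88.8, 101 and 87.2 CPM in A178D hearts. Of the A178D hearts, 3 were above all WT hearts and heart 1 lay within the WT range. Its log2 fold change was 0.15 with a 95% interval from -0.04 to 0.34 (edgeR, adjusted *p* = 0.416), and was 0.09 without A178D heart 3 and 0.10 without WT heart 4. The related repressor *Bhlhe41* (ENSMUSG00000030256, chr6:145858243-145865558, minus strand) measured 28.3, 21.8 and 23.9 CPM in WT hearts and 22.1, 28.9, 26.6 and 23.6 CPM in A178D hearts. Both genotypes covered nearly the same range, and the log2 fold change of 0.04 had a 95% interval from -0.20 to 0.28 (edgeR, adjusted *p* = 0.899). Both genes are known to respond to hypoxia as well as to the clock. Among 13 genes of the hypoxia response edgeR called 0, limma-voom called 0, DESeq2 called 1 higher and 1 lower, and 4 had an unadjusted *p* under 0.05. Their median log2 fold change was -0.0015, with 7 below 0 and 6 above. Without overlap between the genotypes, 2 of them were lower and 1 was higher, against 16.1% of all genes tested in either direction. Of all genes tested, 16.7% had an unadjusted *p* under 0.05. The smallest *p* was that of *P4ha1*, a collagen prolyl hydroxylase subunit, with 54.7, 49.9 and 51.7 CPM in WT hearts and 77.0, 59.3, 63.0 and 69.2 CPM in A178D hearts. Every A178D heart was higher for it, with a log2 fold change of 0.36 ± 0.09 (SE; edgeR, adjusted *p* = 0.0516), just over the threshold, and DESeq2 called it. EdgeR called it with no filter on low counts (adjusted *p* = 0.0330), with 10 or more counts asked of every library (0.0497), with length and GC offsets (0.0339), with halved counts (0.0486) and without A178D heart 2 (0.0386).

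*Ciart* (ENSMUSG00000038550, chr3:95878503-95882251, minus strand) encodes a repressor that acts on CLOCK and BMAL1 directly. It measured 29.7, 23.3 and 22.6 CPM in WT hearts and 18.3, 20.98, 31.5 and 28.1 CPM in A178D hearts. A178D hearts 1 and 2 were below all WT hearts, heart 3 was above all of them, and heart 4 was among them. The log2 fold change was -0.03 with a 95% interval from -0.38 to 0.32 (edgeR, adjusted *p* = 0.951), and the SD among A178D hearts, 0.36 on the log2 scale, was larger than that of 86.1% of tested genes.

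*Rora* (ENSMUSG00000032238, chr9:68653786-69388246, plus strand), the nuclear receptor that activates *Arntl*, measured 6.39, 5.83 and 7.63 CPM in WT hearts and 4.98, 5.39, 4.73 and 3.77 CPM in A178D hearts. All A178D hearts were below all WT hearts. The log2 fold change of -0.48 ± 0.15 (SE), from means of 6.62 ± 0.919 CPM (SD, n = 3) and 4.72 ± 0.688 CPM (SD, n = 4), did not pass the test (edgeR, adjusted *p* = 0.131). Its opponent *Nr1d1* measured 178.2, 115 and 108 CPM in WT hearts and 198, 199, 190 and 175 CPM in A178D hearts. WT heart 1 reached the A178D range and the other 2 did not, and the log2 fold change of 0.51 ± 0.14 (SE) did not pass the test (edgeR, adjusted *p* = 0.0717), although DESeq2 called it higher. EdgeR called it with no filter on low counts (adjusted *p* = 0.0330) and without WT heart 1 (0.000207, at 0.77), but not with length and GC offsets. The log2 ratio of *Nr1d1* over *Rora*, the repressor over the activator, was 4.80, 4.31 and 3.82 in WT hearts and 5.32, 5.20, 5.33 and 5.53 in A178D hearts. It was higher in each A178D heart than in any WT heart, a description with no test. Of the other 2 receptors of the ROR family edgeR, DESeq2 and limma-voom called 0. An unadjusted *p* under 0.05 was found for 1, against 16.7% of all genes tested. That was *Rorb*, at or under 1.49 CPM in each heart, with a log2 fold change of 0.91 ± 0.35 (SE; edgeR, adjusted *p* = 0.210).

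**Figure D1:**
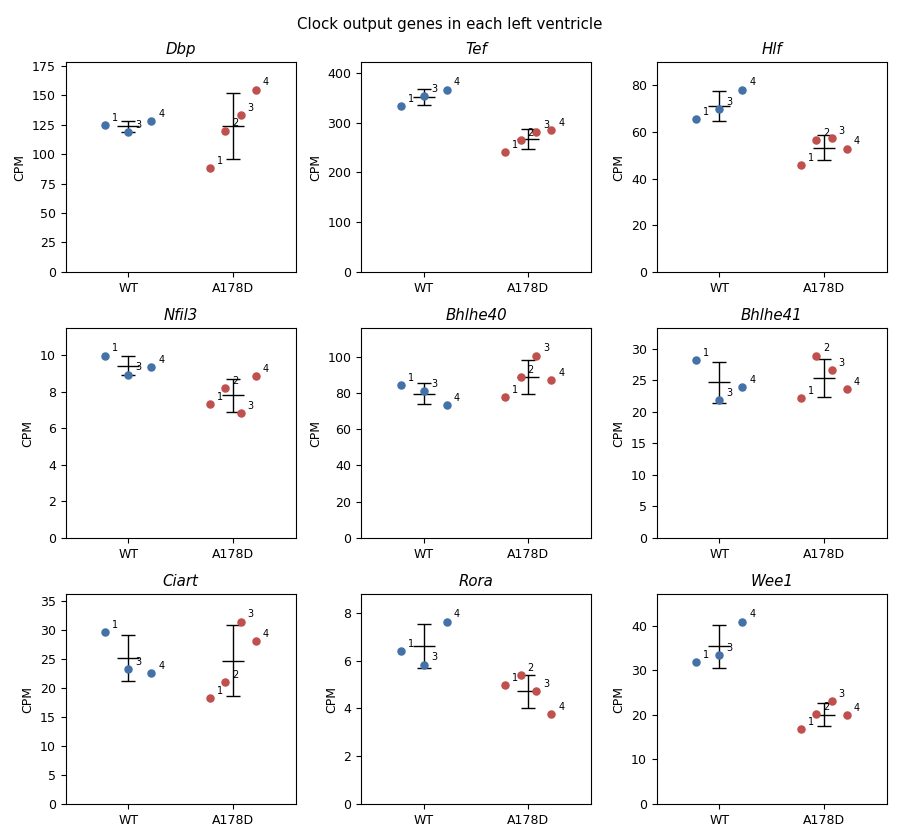
CPM (vertical axis, from 0) of each of the 9 clock output genes in 3 WT (blue) and 4 A178D (red) left ventricles, numbered by replicate, with the mean and SD of each genotype in black. *Tef*, *Hlf*, *Nfil3*, *Rora* and *Wee1* do not overlap between genotypes, whereas A178D hearts for *Dbp* run from 88.1 to 155 CPM around WT hearts between 119 and 128 CPM.

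Per kilobase of exon, the scale on which genes can be compared with each other, *Tef* and *Dbp* were the most abundant of the 9 in WT hearts, at 44.6 ± 2.06 and 41.4 ± 1.57 CPM per kilobase (SD, n = 3), and WT hearts of both genes overlapped. *Bhlhe40* followed at 16.9 CPM per kilobase, then *Ciart* at 11.2, *Hlf* at 10.6 and *Wee1* at 10.4, whose WT hearts overlapped from each gene to the next. *Nfil3* at 4.64, *Bhlhe41* at 3.67 and *Rora* at 0.506 CPM per kilobase completed the order, each with WT hearts apart from those of its neighbours. In A178D hearts *Wee1* stood at 5.86 CPM per kilobase and no longer overlapped *Hlf*, at 7.95. *Dbp*, at 41.5 CPM per kilobase, and *Tef*, at 34.01, changed places with overlapping hearts. Over both genotypes *Dbp* was more abundant per kilobase than 93.1% of tested genes and *Rora* more abundant than 15.4%.

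The A178D hearts were not alike. For 7 of the 9 output genes (*Dbp*, *Tef*, *Hlf*, *Bhlhe40*, *Bhlhe41*, *Ciart* and *Wee1*), A178D heart 1 was the lowest of the 4, and it was the highest for 0. Over all genes tested, A178D heart 1 was lowest in 23.1% and highest in 23.4%, and A178D heart 4 in 34.5% and 33.5%. A178D heart 3 was the highest of the 4 for 4 output genes and A178D heart 4 for 3. Heart 1 was also lowest for 5 of the 7 core clock repressors, and its *Arntl* value was the highest of all hearts. Heart 4 was lowest for the other 2 repressors, *Nr1d1* and *Nr1d2*, and for all 4 core clock activators. Part of this order was shared by the WT hearts. WT heart 1 was the lowest WT heart for *Tef*, *Hlf*, *Wee1*, *Per1*, *Per2*, *Per3*, *Cry1* and *Cry2*, and the highest for *Arntl*. It was the highest WT heart for *Nfil3*, *Bhlhe40*, *Bhlhe41* and *Ciart*, and lay between the others for *Dbp* and *Rora*.

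Genes were further compared by the root mean square (RMS) difference of their log2 CPM over the 7 hearts, each gene centred on its mean. Among the output genes and the 11 core clock genes listed below, *Hlf* and the repressor *Per3* were the most alike pair, at 0.07, followed by *Tef* and *Hlf*, also at 0.07. *Bhlhe40* was nearest to *Bhlhe41* at 0.14, *Wee1* to *Per2* at 0.16 and *Dbp* to *Ciart* at 0.18. Over 12312 other genes of at least 1 CPM, the nearest to *Dbp* were *Ctu2*, *Arid5a* and *Ttc9* (RMS differences of 0.076, 0.077 and 0.078). For *Ciart* they were *Stc1*, *Klf4* and *Ntsr2* (0.075, 0.088 and 0.10), and for *Nfil3* they were *Eif4enif1*, *Bcr* and *Med26* (0.058, 0.062 and 0.064). For *Wee1* they were *Tmem255a*, *Atp10d* and *Noct* (0.12, 0.12 and 0.14). *Noct*, which encodes the rhythmic enzyme nocturnin, measured 40.6, 46.2 and 52.7 CPM in WT hearts and 24.3, 26.1, 32.0 and 34.1 CPM in A178D hearts. These 12 genes were picked for likeness over the same 7 hearts, so a difference between genotypes in them restates the choice, and no test of them is given.

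Of 11 core clock genes, from which the output genes take their rhythm, edgeR called 1 higher and 3 lower in A178D hearts. Of the 11, 7 had an unadjusted *p* under 0.05. Over all genes tested 1.04% were called higher and 1.31% lower, and 16.7% had an unadjusted *p* under 0.05. The 4 activators had a median log2 fold change of 0.23 and the 7 repressors one of -0.29. *Arntl* measured 2.44, 1.10 and 1.33 CPM in WT hearts and 8.70, 5.24, 4.15 and 4.14 CPM in A178D hearts. All A178D hearts were higher, and the log2 fold change was 1.77 ± 0.31 (SE; edgeR, adjusted *p* = 0.0115). Set against *Dbp*, a gene that BMAL1 itself activates, the log2 ratio of *Dbp* over *Arntl* was 5.68, 6.75 and 6.59 in WT hearts and 3.34, 4.52, 5.01 and 5.23 in A178D hearts, with no overlap. The log2 fold change of *Dbp* was 0.0016, so this ratio largely restates the difference in *Arntl*, and it was not tested. *Per2* measured 43.3, 61.3 and 61.1 CPM in WT hearts and 24.0, 27.9, 33.5 and 35.0 CPM in A178D hearts. It was lower in each A178D heart, by a log2 fold change of -0.88 ± 0.14 (SE; edgeR, adjusted *p* = 0.00620). *Per3* was called lower at -0.47 ± 0.09 (SE; edgeR, adjusted *p* = 0.0172) and *Cry1* at -0.51 ± 0.11 (SE; edgeR, adjusted *p* = 0.0328), both without overlap between the genotypes. Without WT heart 3, WT heart 4 or A178D heart 1, *Per3* was not called (edgeR, adjusted *p* = 0.0890, 0.0937 and 0.0555), nor was *Cry1* (0.187, 0.129 and 0.112), which was also lost without A178D heart 3 (0.0899). *Per2* was not called without WT heart 3 (edgeR, adjusted *p* = 0.0525), nor was *Arntl* without WT heart 3 (0.0823) or WT heart 4 (0.0761). Among 7 kinases and ubiquitin ligase parts that act on PER and CRY, edgeR, limma-voom and DESeq2 (with an adjusted *p* for 6) called 0. Their median log2 fold change was -0.15, and 1 had an unadjusted *p* under 0.05, against 16.7% of all genes tested. That gene, *Csnk1e*, had a log2 fold change of -0.20 ± 0.08 (SE; edgeR, adjusted *p* = 0.213).

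**Figure D2:**
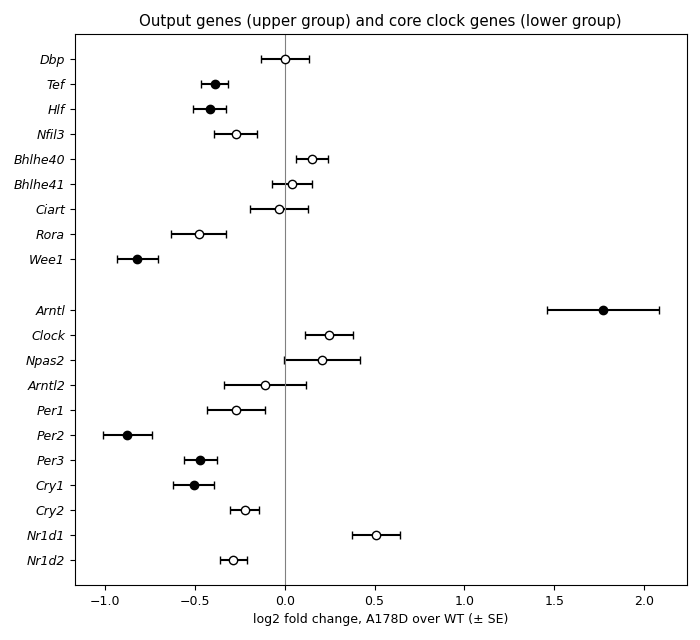
Log2 fold change, A178D over WT (horizontal axis, bars ± SE from edgeR, 3 WT and 4 A178D hearts), of the 9 clock output genes (upper group) and 11 core clock genes (lower group), with filled points for genes at an adjusted *p* under 0.05. *Wee1*, *Tef* and *Hlf* are filled to the left of 0, *Dbp* sits at 0.0016, and *Arntl* lies farthest right at 1.77.

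**Figure D3:**
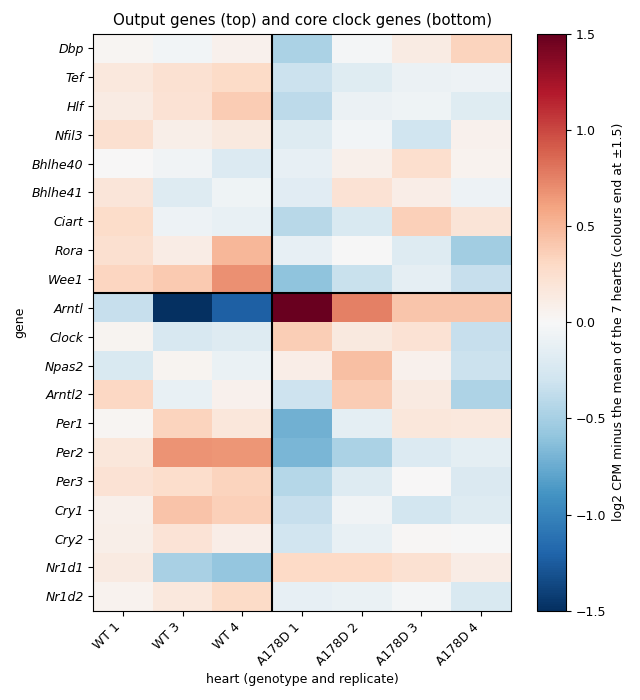
Log2 CPM of each clock output gene (top) and core clock gene (bottom) in each of the 7 hearts (columns), as the difference from the gene's mean over the hearts, from blue (lower) to red (higher), with colours ending at 1.5 in either direction. In the column of A178D heart 1 most output genes are at their lowest and *Arntl*, at 8.70 CPM, at its highest.

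Genes known to lie downstream of the output factors were read from further lists. For these and the lists that follow, the shares over all genes tested were 1.31% called lower and 1.04% higher (edgeR). At an unadjusted *p* under 0.05 the share was 16.7%. Among 4 genes known as targets of the PAR bZIP factors edgeR called 1 lower and 0 higher, as did DESeq2 and limma-voom, and 1 had an unadjusted *p* under 0.05. The median log2 fold change was -0.0099, and it was 0.0040 with length and GC offsets. The called gene was *Ppara*, the nuclear receptor of fatty acid oxidation, with 148, 136 and 152 CPM in WT hearts and 105, 117, 115 and 109 CPM in A178D hearts. Its genotypes did not overlap, and its log2 fold change was -0.38 ± 0.07 (SE; edgeR, adjusted *p* = 0.0144), close in size to those of *Tef* and *Hlf*. It was not called without WT heart 4 (edgeR, adjusted *p* = 0.0772) or A178D heart 1 (0.0566). Among 5 genes known as rhythmic in many mouse organs, of which *Por* is also one of the 4 PAR bZIP targets, 1 was called lower and 0 higher by each of the 3 tools, 3 had an unadjusted *p* under 0.05 and the median log2 fold change was -0.25. The called gene was *Lonrf3*, at 2.44, 3.08 and 4.18 CPM in WT hearts and 1.44, 1.67, 1.17 and 1.61 CPM in A178D hearts. All A178D hearts were lower, with a log2 fold change of -1.13 ± 0.23 (SE; edgeR, adjusted *p* = 0.0212). The call was lost without WT heart 3 (edgeR, adjusted *p* = 0.0977), WT heart 4 (0.127), A178D heart 1 (0.0682) or A178D heart 3 (0.0626).

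Among 13 genes known to be clock-controlled in the heart edgeR called 2 lower and 0 higher, limma-voom 2 lower and 1 higher and DESeq2 3 lower and 0 higher, with 5 at an unadjusted *p* under 0.05 and a median log2 fold change of -0.09. *Kcnd2*, a potassium channel subunit of the transient outward current, measured 48.6, 40.9 and 39.2 CPM in WT hearts and 14.8, 18.2, 21.6 and 15.7 CPM in A178D hearts. Every A178D heart was far below the WT hearts, at a log2 fold change of -1.29 ± 0.12 (SE; edgeR, adjusted *p* = 0.000283). *Nampt*, the rate-limiting enzyme of NAD salvage, was called lower at -0.67 ± 0.10 (SE; edgeR, adjusted *p* = 0.00564). *Klf15*, a factor through which the clock is known to act on repolarisation, measured 65.7, 101 and 92.0 CPM in WT hearts and 56.7, 59.4, 59.5 and 69.8 CPM in A178D hearts. A178D heart 4 was above WT heart 1, and the log2 fold change of -0.49 ± 0.12 (SE) narrowly missed the threshold (edgeR, adjusted *p* = 0.0516), while DESeq2 called it lower. EdgeR called it with no filter on low counts (adjusted *p* = 0.0192), with length and GC offsets (0.0202), and without WT heart 1 (0.00170) or A178D heart 4 (0.0311). Also uncalled were 2 metabolic genes of this list that went the other way, named here after their values were seen. *Ucp3* measured 62.3, 51.2 and 129 CPM in WT hearts and 156, 165, 152 and 119 CPM in A178D hearts, with WT heart 4 above A178D heart 4. Its log2 fold change was 0.88 ± 0.24 (SE; edgeR, adjusted *p* = 0.0717), called higher by limma-voom and, with no filter or without WT heart 4, by edgeR (adjusted *p* = 0.0239 and 0.00215). For *Pdk4*, at 346, 136 and 497 CPM in WT hearts and 624, 648, 637 and 403 CPM in A178D hearts, it was 0.82 ± 0.30 (SE; edgeR, adjusted *p* = 0.183), with overlap. The value was 0.45 without WT heart 3 and 1.261 without WT heart 4, and that of *Ucp3* was 1.39 without WT heart 4. *Tcap*, which encodes the titin partner telethonin and is rhythmic in the heart, had a log2 fold change of 0.13 with a 95% interval from -0.05 to 0.31 (edgeR, adjusted *p* = 0.460). It was 0.0028 once trends with transcript length and GC content were removed, and 0.07 without WT heart 1 or A178D heart 4.

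Glucocorticoids set the clocks of peripheral organs, and their known target genes were therefore read as well. Among 10 such genes edgeR, DESeq2 and limma-voom each called 1 higher and 1 lower, 6 had an unadjusted *p* under 0.05 and the median log2 fold change was -0.19. This list shares *Per1* with the core clock genes and *Tsc22d3* with the genes rhythmic in many mouse organs. *Zbtb16* measured 52.2, 79.4 and 89.1 CPM in WT hearts and 27.1, 31.2, 28.7 and 39.6 CPM in A178D hearts. It was lower in all A178D hearts, by a log2 fold change of -1.22 ± 0.16 (SE; edgeR, adjusted *p* = 0.00224). *Cdkn1a*, an inhibitor of cyclin-dependent kinases, was called higher at 0.54 ± 0.10 (SE; edgeR, adjusted *p* = 0.0146), but not without WT heart 3 (0.0951), WT heart 4 (0.0746) or A178D heart 1 (0.0555).

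Markers of cell types were read beside these results. All 4 smooth muscle markers were called lower, *Acta2* (the most abundant) at -0.59 ± 0.09 (SE; edgeR, adjusted *p* = 0.00587), *Tagln* at -0.62, *Myh11* at -0.67 and *Cnn1* at -0.82. *Myh11* was not called without WT heart 3 or WT heart 4 (edgeR, adjusted *p* = 0.0501 and 0.0547), and *Cnn1* was called in 1 of 7 fits that left out a heart, the one without A178D heart 4 (edgeR, adjusted *p* = 0.0449, against 0.0591 to 0.109 in the others). Their summed level was 431, 414 and 394 CPM in WT hearts and 219.8, 283, 295 and 271 CPM in A178D hearts, with heart 1 again the lowest, and none of these markers was at 0 CPM in any heart. The part of smooth muscle cells in the lower *Wee1*, *Tef* and *Hlf* was not tested. Among 5 ventricular myocyte markers edgeR, DESeq2 and limma-voom called 0, with 1 (*Actc1*) at an unadjusted *p* under 0.05. The most abundant, *Myh6*, was slightly lower in each A178D heart (35695 to 38705 CPM) than in any WT heart (38733 to 41671 CPM), at -0.11 ± 0.06 (SE; edgeR, adjusted *p* = 0.378), while *Actc1* was higher in each (0.13 ± 0.06; edgeR, adjusted *p* = 0.293, but 0.03 with length and GC offsets). Endothelial markers gave 0 of 4 called by the 3 tools and 0 at an unadjusted *p* under 0.05. Of these, 2 were below 0 and 2 above, with a median log2 fold change of 0.0017. *Kdr* was the most abundant (0.08 ± 0.11), and *Cdh5* had the smallest *p* (-0.11 ± 0.08; edgeR, adjusted *p* = 0.514). Fibroblast markers gave 0 of 4 by edgeR and limma-voom, 1 higher by DESeq2 (*Col1a1*) and 1 at an unadjusted *p* under 0.05, with *Dcn* the most abundant at 0.0026 ± 0.08. For *Col1a1* edgeR gave 0.45 ± 0.12 (adjusted *p* = 0.0813). The adjusted *p* from edgeR was 0.0416 with no filter and 0.0261 with length and GC offsets. Without WT heart 1 it was 0.0196, at a log2 fold change of 0.58, and without WT heart 4 it was 0.180, at 0.27. Macrophage markers gave 0 of 5 by edgeR and limma-voom, 1 higher by DESeq2 (*Adgre1*, edgeR 0.33 ± 0.10, adjusted *p* = 0.107) and 2 at an unadjusted *p* under 0.05, with *Csf1r* the most abundant (0.09 ± 0.09).

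Of 4 atrial markers *Nppa*, which stressed ventricles also express, was called higher (1.31 ± 0.24; edgeR, adjusted *p* = 0.0146), but not without WT heart 3 (0.0860), WT heart 4 (0.0598) or A178D heart 1 (0.0555). *Myl4*, the other atrial marker that was tested, measured 1.90, 1.89 and 1.85 CPM in WT hearts and 4.02, 2.14, 2.60 and 3.06 CPM in A178D hearts. All A178D hearts were higher for it, and its log2 fold change was 0.65 ± 0.23 (SE; edgeR, adjusted *p* = 0.171). Both tested atrial markers thus had an unadjusted *p* under 0.05, while *Myl7* and *Sln* were at or under 0.152 CPM in each heart and were not tested. Of 6 skeletal muscle markers *Acta1*, likewise expressed by stressed ventricles, was called higher (2.64 ± 0.29; edgeR, adjusted *p* = 0.000651), *Ckm* was the most abundant (0.09 ± 0.08), and the skeletal myosins *Myh1*, *Myh2* and *Myh4* were at or under 0.293 CPM. Of the 3 skeletal markers that were tested, 1 had a log2 fold change below 0 and 2 above, and *Acta1* alone had an unadjusted *p* under 0.05. Markers of T and NK cells summed to at most 1.5997 CPM in a heart and those of adipocytes to at most 1.55 CPM, with 0 called by edgeR and limma-voom and 0 at an unadjusted *p* under 0.05 in either list. DESeq2 gave an adjusted *p* to none of these markers, and so could not call them. The most abundant of each were *Nkg7* and *Cidec*, both under 1 CPM. Erythrocyte markers gave 0 of 5 entries called by the 3 tools and 0 at an unadjusted *p* under 0.05. The most abundant, *Hbb-bs*, appears as 2 entries with differing counts, at 0.17 ± 0.11 and 0.30 ± 0.17, and shares sequence with other globin genes.

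Promoter sequences were read for the elements through which the clock is known to act, in the 250 bases before the gene start of 32851 promoters from RefSeq (GRCm38.p6), on both strands. Of the output genes 7 had an entry, *Tef* with 2 promoters. *Wee1* and *Bhlhe40* had no entry, nor did the core clock gene *Per2*, so their promoters were not read. The E-box letters CACGTG occurred in 6.02% of all promoters, and among the output genes in those of *Ciart* (3 times), *Bhlhe41* and *Tef* (in both). The D-box letters TTATGTAA or TTACGTAA occurred in 0.931% of all promoters and in 0 of those of the output genes, but 2 times in that of *Per3*, the core clock gene most like *Hlf* over the hearts. The letters AGGTCA, the core of the element that RORA and NR1D1 bind, occurred in 14.0% of promoters, among them that of *Nfil3*. Among the core clock genes, promoters of *Cry1* and *Per1* held CACGTG, and promoters of *Clock*, *Per1* and *Nr1d2* held AGGTCA. None of these motifs holds another. The stretches below are shown because they carry the E-box of 3 output genes and the D-box of *Per3*, with the motif in capitals and the gene's strand read 5′ to 3′, leaving out bases that GENCODE places in exons, as it does the whole window of the upstream *Tef* promoter. They lie at chr3:95882252-95882478 (minus strand) for *Ciart*, chr6:145865559-145865670 (minus strand) for *Bhlhe41*, chr15:81811164-81811413 (plus strand) for the downstream *Tef* promoter and chr4:151044666-151044915 (minus strand) for *Per3*.
*Ciart*: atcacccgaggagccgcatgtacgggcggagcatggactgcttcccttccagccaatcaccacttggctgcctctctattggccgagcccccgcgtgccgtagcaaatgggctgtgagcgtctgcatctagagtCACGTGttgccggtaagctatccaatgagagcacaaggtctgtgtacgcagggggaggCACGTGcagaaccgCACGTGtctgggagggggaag
*Bhlhe41*: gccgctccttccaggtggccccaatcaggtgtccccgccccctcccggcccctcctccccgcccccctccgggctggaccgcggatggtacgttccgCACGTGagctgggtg
*Tef*: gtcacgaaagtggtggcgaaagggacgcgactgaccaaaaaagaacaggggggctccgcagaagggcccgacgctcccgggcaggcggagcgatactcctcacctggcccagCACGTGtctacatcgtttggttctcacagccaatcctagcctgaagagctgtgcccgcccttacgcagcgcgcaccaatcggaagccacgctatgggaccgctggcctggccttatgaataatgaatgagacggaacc
*Per3*: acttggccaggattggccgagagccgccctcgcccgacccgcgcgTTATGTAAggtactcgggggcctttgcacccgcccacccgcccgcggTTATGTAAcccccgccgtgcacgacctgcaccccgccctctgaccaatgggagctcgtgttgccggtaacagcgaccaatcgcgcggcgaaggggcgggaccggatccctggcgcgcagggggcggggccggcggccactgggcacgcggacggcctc

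The 3 E-boxes of *Ciart* begin 116, 58 and 44 bases before its start, that of *Bhlhe41* 153 bases and that of the downstream *Tef* promoter 138 bases before theirs. Distances are counted from the start that RefSeq gives, which in all 3 cases lies inside the gene as GENCODE places it. Of these genes *Tef* alone was called in A178D hearts, while *Ciart* and *Bhlhe41* had log2 fold changes of -0.03 and 0.04. Over all 1065 tested genes with an E-box in such a window 1.41% were called higher and 1.41% lower (edgeR), with a median log2 fold change of -0.0010. The 10921 tested genes with any promoter entry gave 1.03% and 1.30%, with a median of 0.0028. Of 85 tested genes with a D-box 1 was called, lower, by edgeR, and the median log2 fold change was -0.01. A match of letters is a description and does not show binding.

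Not every call was equally firm. *Wee1* was called lower in all 7 fits that left out 1 heart, with an adjusted *p* of at most 0.0319 (edgeR). *Tef* and *Hlf* were not called without WT heart 3 (edgeR, adjusted *p* = 0.0890 and 0.116), without WT heart 4 (0.0873 and 0.149) or without A178D heart 1 (0.0574 and 0.0907), so that 1 of 9 output genes was called in these 3 fits. In the same 3 fits the log2 fold change was -0.39, -0.36 and -0.34 for *Tef* and -0.43, -0.34 and -0.35 for *Hlf*, while over all genes tested 22, 40 and 40 were called higher and 31, 42 and 50 lower, against 145 and 182 with all hearts. Without the same hearts the core clock genes called lower numbered 0, 1 and 1, and *Arntl* was not called without WT heart 3 (adjusted *p* = 0.0823) or WT heart 4 (0.0761).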

How the data were processed

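Polyadenylated RNA of left ventricles of 3 WT and 4 A178D mice was sequenced as stranded paired-end libraries. The authors deposited raw counts per gene. The submitters' processing notes name bcl2fastq 2.18.0.12, HISAT2 2.1.0, SAMtools 1.6, DESeq2 1.26.0 and GRCm38. The counting program and annotation release are not given in the sources used here. A second table, of counts divided by size factors with the authors' comparison, was not used. Ensembl identifiers were named by GENCODE release M21, with 268 of 21257 entries unnamed. Sets of entries with identical counts that summed to 30 or more over the libraries (442 entries in 219 sets) were reduced to 1 entry. Below 30 counts, an entry was removed only where an earlier entry had the same identifier and the same counts. In all 330 entries were removed by these 2 steps, leaving 20927. Of the identifiers, 36 were kept more than once, and counts over all genes are counts of entries. Counts were compared in edgeR 4.0.16 (R 4.3.3) by genotype alone (TMM, glmQLFit, glmQLFTest). Genes needed 10 or more counts in 3 or more libraries, and *p* was adjusted over all tested genes by the Benjamini-Hochberg procedure. Odd numbers made up 17.6 to 20.3% of counts from 1 to 20 in a library, as where fragments are counted once per end, so halved counts were tried. The pipeline was tested on simulated data. The number of hearts and the depth limit precision, which each SE covers.

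The members and lists were chosen with earlier results of these data known. Named genes are the 9 output genes; from each list its called genes (at most 10) or, where none was called, the one with the smallest *p*; *Arntl*, *Nr1d1*, *Per2*, *Kcnd2*, *Klf15* and *Tcap*; the most abundant gene of each marker list; and the 3 nearest in pattern to *Dbp*, *Nfil3*, *Ciart* and *Wee1* (log2 CPM with a prior count of 2). Motifs, ratios between genes, the comparison of gene pairs, *Ucp3*, *Pdk4*, *Myl4*, *Por*, *Per1*, *Tsc22d3* and the untested markers that are named were chosen after values were seen. Alternatives were DESeq2 1.42.0, its size factors in edgeR, limma-voom (limma 3.58.1), no filter, at least 10 counts in every library, a replicate block, length and GC offsets (mgcv 1.9.3, basis size 6), both together, adjusted *p* under 0.01, the table as deposited, halved counts, and leaving out each library.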

Additional observations from a re-analysis of the deposited data

Results flagged for a closer look

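In each of 62 sets of 4 A178D values, 1 for each named gene or entry, the highest and lowest heart were compared with the other 3. A heart stood apart in 4 of them, and chance alone marks about 1 in 20 such sets. None of the 9 clock output genes was among them. *Dcn* was 646 CPM in A178D replicate 1, against 555 to 562 CPM in the other A178D hearts. *Pdk4* was 403 CPM in A178D replicate 4, against 624 to 648 CPM. *Klrb1c* was 0.446 CPM in A178D replicate 1, against 0.0937 to 0.152 CPM, and *Cidec* was 0.493 CPM in A178D replicate 2, against 0.0991 to 0.141 CPM. Both of the last were under 1 CPM in each heart.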

How the results depend on the processing

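The 3 clock output genes called lower were 3 under each alternative with all 7 hearts at the same threshold, replicate block included, and 1 at an adjusted *p* under 0.01. Leaving out 1 heart gave 1 to 3 lower and 0 higher. The core clock genes called lower, 3, became 4 with DESeq2, 4 with no filter, 4 with length and GC offsets, 1 at an adjusted *p* under 0.01 and 0 to 4 when 1 heart was left out. Those called higher, 1, became 2 with DESeq2, 2 with no filter, 2 with the replicate block, 3 with the replicate block and length and GC offsets, 0 at an adjusted *p* under 0.01 and 0 to 2 when 1 heart was left out. Over all genes 145 were called higher and 182 lower; this became 306 and 383 with DESeq2, 24 and 40 at an adjusted *p* under 0.01, and 22 to 215 and 31 to 238 when 1 heart was left out. With length and GC offsets 220 were called higher and 248 lower, and with no filter 190 and 246. Replicate numbers are shared by both genotypes. Deviations from the group mean hardly correlated over genes between hearts of the same number (0.003, -0.040 and -0.042 for numbers 1, 3 and 4). Correlations over so many genes cannot decide whether the clock genes were paired. Replicate 1 was lowest in both genotypes for *Tef*, *Hlf*, *Wee1*, *Per1*, *Per2*, *Per3*, *Cry1* and *Cry2*, and highest in both for *Arntl*. For *Bhlhe40*, *Bhlhe41* and *Ciart* it was highest in WT and lowest in A178D. Pairing in the clock genes was not tested. The replicate block gave 124 higher and 147 lower. Under the replicate block alone and with offsets added, edgeR called *Nr1d1* (adjusted *p* = 0.0175 and 0.0196), *Klf15* (0.0348 and 0.0113) and *P4ha1* (0.0304 and 0.0122), none of which was called by genotype alone as in the results above. *Col1a1* was called with both (0.0195) and *Ucp3* with the block alone (0.0274). *Cnn1* was not called in either (edgeR, adjusted *p* = 0.0617 and 0.0512; log2 fold changes of -0.85 and -0.91), so that 3 of 4 smooth muscle markers were called there. None of the genes whose log2 fold change changed sign was called with all hearts and no block, where *Plin1* was 0.43 ± 0.64 and *Nkg7* 0.32 ± 0.51 (SE). The log2 fold change of *Dbp* was -0.029 with limma-voom, -0.0024 with no filter, -0.019 with the replicate block, -0.049 with length and GC offsets, -0.061 with both, and -0.12 to 0.13 when 1 heart was left out. With the replicate block *Bhlhe41* was -0.026, *Ciart* 0.021, *Plin1* -0.048, *Stc1* 0.037 and *Klf4* 0.014, and with offsets added *Tcap* was -0.014, *Plin1* -0.065, *Arid5a* 0.043 and *Stc1* 0.044. *Arid5a* was 0.039 with length and GC offsets alone, *Ctu2* was -0.010 with limma-voom and *Dcn* -0.00081 with no filter. Leaving out 1 heart gave -0.041 to 0.15 for *Bhlhe41*, -0.17 to 0.11 for *Ciart*, -0.035 to 0.27 for *Kdr*, -0.067 to 0.058 for *Dcn*, -0.051 to 0.54 for *Nkg7*, -0.11 to 0.13 for *Ctu2*, -0.13 to 0.065 for *Arid5a*, -0.071 to 0.24 for *Ttc9*, -0.17 to 0.10 for *Stc1*, -0.13 to 0.12 for *Klf4* and -0.21 to 0.051 for *Ntsr2*. Without a change of sign it gave 0.067 to 0.18 for *Tcap*, 0.087 to 0.21 for *Bhlhe40*, 0.033 to 0.19 for *Csf1r*, 0.0063 to 0.14 for *Ckm*, and 0.088 to 0.26 and 0.11 to 0.41 for the entries of *Hbb-bs*. With length and GC offsets *Tcap* was 0.0028, *Actc1* 0.035, *Kdr* 0.14, *Ckm* 0.043, *Dcn* 0.060 and *Hbb-bs* 0.012 and 0.13. Over the 9 output genes, 83 of 90 log2 fold changes under the other alternatives kept their sign and side of the threshold, as did 49 of 63 when 1 heart was left out, where 6 lost the call and 8 changed sign. The cause of these changes was not tested; fits without a heart have fewer samples.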
